A study of Mus musculus with 8 samples.

Results

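The 10 genes Mt1, Mt2, Mtf1, Slc30a1, Fth1, Ftl1, Tfrc, Slc11a2, Slc40a1 and Ireb2, which handle zinc and iron, were taken from the gene count table of mouse embryonic stem cells (mESCs). They were chosen by name, each matched 1 of the 50686 Ensembl identifiers of the table, and all 10 passed the filter on low counts.

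The study compared 8 samples, 1 library for each combination of location, genotype and culture duration. The cells were mESCs of the R9wt genotype (wild type) or of the R9del genotype (labelled Rad9-/-, for Rad9a, a gene of the DNA damage checkpoint). They were cultured on board a satellite (Space) or in the same kind of device on the ground (Ground) for 1 day (D1) or 5 days (D5), and were then fixed in RNAlater. The questions were what spaceflight, the deletion and culture duration did to gene expression, and each was asked here as 4 libraries against 4. No condition was repeated and no separate clone is named, so a p-value measures the spread among libraries that also differ in the other conditions. Within each location every library came from its own culture device, the number of seeded cells differed between D1 and D5 and, at D5, between the genotypes, and D1 cells stayed in fixative for longer, so these cannot be told apart from the conditions. Space and Ground also differed in gravity, in radiation and in vibration at launch and return.

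Library totals lay between 58238440 and 96416907 counts, the 2 ground R9wt libraries being the deepest. Mitochondrial genes took at most 3.39% of the counts, a share lower in space, higher in R9del and lower at D5 in all 4 pairs of each comparison, and its part in the results was not tested. Rad9a gave 70.3 to 93.4 CPM, the read count relative to the scaled size of its library, in the R9wt libraries and 20.8 to 28.6 CPM in the R9del libraries (log2 fold change -1.77, edgeR adjusted p = 0.0269). Counts per gene do not show whether the remaining signal lies outside the deleted part, so Rad9a checks the label only in part. Summed CPM of 10 embryonic stem cell markers was 4540 to 8200. For 8 fibroblast markers the sum was 26.4 to 61.2 CPM, with Dcn and Lum at or near 0, Thy1 at 11.8 to 38.7 CPM and Pdgfrb at 3.48 to 26.8 CPM. For 8 endoderm markers it was 6.66 to 35.3 CPM. For 5 erythroid markers the sum was 3.15 to 8.97 CPM. In bulk RNA, fewer cells of a type and less RNA per cell cannot be told apart.

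As background, zinc inside cells is buffered by metallothioneins, small cysteine-rich proteins encoded by Mt1 and Mt2. The zinc-sensing transcription factor MTF1 binds metal response elements in DNA and drives both of these genes and Slc30a1, which encodes the zinc exporter ZnT1. Iron is taken up by the transferrin receptor (Tfrc) and moved across membranes by DMT1 (Slc11a2), stored in ferritin made of heavy (Fth1) and light (Ftl1) chains, and exported by ferroportin (Slc40a1). Iron regulatory proteins, 1 of them encoded by Ireb2, bind hairpins called iron-responsive elements when iron is low. A hairpin in a 5′ UTR lets the protein block translation, as in ferritin messages, whereas hairpins in the Tfrc 3′ UTR protect the message from decay.

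Metal response element cores are shown first because they separate the metallothionein genes from most other members by sequence alone. The search was for TGCACNC or TGCGCNC on either strand, within 250 bases on each side of the annotated gene start (GENCODE vM1, mm9), counted from the first base of the gene. Mt2 held 7 cores, Mt1 5, Slc30a1 2 and Tfrc 2 that overlap each other, and the other members held none of these letters in the window. Of 22374 windows of protein-coding genes, 42.8% held at least 1 core, 16.4% at least 2, 0.586% at least 5 and 0.0536% at least 7. The 5 sites of Mt1 and the 2 of Slc30a1, which stand for zinc storage and zinc export in the results, are printed with the core in capitals on the strand of the gene. A core on the opposite strand reads as its reverse complement.
Mt1, chr8:96702958-96702980, plus strand: tcccgctgTGCACACtggcgctc
Mt1, chr8:96702983-96703005, plus strand: gggagctcTGCACTCcgcccgaa
Mt1, chr8:96703001-96703023, plus strand: ccgaaaagTGCGCTCggctctgc
Mt1, chr8:96703065-96703087, plus strand: cgcctgctGGGTGCAaacccttt
Mt1, chr8:96703079-96703101, plus strand: aaacccttTGCGCCCggactcgt
Slc30a1, chr1:193730609-193730631, plus strand: ggggttccGAGTGCAaagcaaag
Slc30a1, chr1:193730682-193730704, plus strand: tccgggccGAGCGCAgtcgccgc

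Sites like iron-responsive elements were searched in the coding transcripts of the same annotation, as a C, 5 bases, the loop CAGTG followed by A, C or T, and 5 bases that pair with the first 5 (G with T allowed). Such a site was found in 205 of 22756 genes (0.901%), and 1 gene, Tfrc, held at least 4. Among the members it occurred in the 5′ UTR of Fth1, Ftl1 and Slc40a1 and 4 times in the 3′ UTR of Tfrc. The search allowed no mismatch or bulge among the 5 pairs, so a member with no match may still hold such an element. The 29-base pieces are printed with the loop in capitals, since they show how alike the hairpins of ferritin, ferroportin and the receptor are.
Fth1, chr19:10057222-10057250, plus strand: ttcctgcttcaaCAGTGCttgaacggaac
Ftl1, chr7:52715149-52715177, minus strand: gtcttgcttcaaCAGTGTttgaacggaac
Slc40a1, chr1:45982310-45982338, minus strand: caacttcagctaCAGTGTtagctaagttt
Tfrc, chr16:32631305-32631333, plus strand: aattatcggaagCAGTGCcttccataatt
Tfrc, chr16:32631684-32631712, plus strand: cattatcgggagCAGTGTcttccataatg
Tfrc, chr16:32631749-32631777, plus strand: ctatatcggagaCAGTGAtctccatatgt
Tfrc, chr16:32631796-32631824, plus strand: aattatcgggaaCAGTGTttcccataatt
These are matches to letters in the reference genome, and nothing about binding was measured.

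The genes lie on chromosomes 8 (Mt1, chr8:96702989-96704225 and Mt2, chr8:96696518-96697467), 4 (Mtf1, chr4:124479348-124527044), 1 (Slc30a1, chr1:193730646-193737126 and Slc40a1, chr1:45964915-45982439), 19 (Fth1, chr19:10057193-10059582), 7 (Ftl1, chr7:52713314-52715254), 16 (Tfrc, chr16:32609006-32632880), 15 (Slc11a2, chr15:100218329-100255503) and 9 (Ireb2, chr9:54711562-54760341) of mm9. Copies elsewhere in the genome matter for the ferritin genes. Of the 50-base words in its exons, 48.0% for Ftl1 and 9.25% for Fth1 also occur outside the gene, against at most 0.43% for the other 8 members. Ftl1 and Fth1 counts are therefore uncertain as far as the counting could split reads between copies. Exons overlap another gene over 8.9% of their length in Slc30a1, 8.1% in Ftl1, 6.3% in Slc11a2 and 3.8% in Mtf1.

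Per kilobase of exon, ferritin messages were the most abundant of the set and the zinc-sensing factor and both exporters the least. The median over the 8 libraries, in CPM per kilobase, was 3970 for Ftl1 and 647 for Fth1. It was 95.3 for Mt1 and 54.3 for Mt2, then 23.6 for Tfrc, 14.4 for Ireb2 and 10.4 for Slc11a2, and 4.96 for Slc30a1, 4.46 for Slc40a1 and 4.21 for Mtf1. The range of Fth1 over libraries (507 to 994) stayed below that of Ftl1 (2100 to 12000) and above that of Mt1 (81.3 to 159). From Mt1 downward the range of each gene overlapped that of its neighbour in this order, through Mt2 (28.8 to 83.4), Tfrc (10.6 to 39.3), Ireb2 (11.3 to 19.7), Slc11a2 (5.19 to 17) and Slc30a1 (2.54 to 8.74). Slc40a1 spread the most, 10.5-fold between its lowest and highest library, followed by Ftl1 at 5.73-fold. Ireb2 spread the least at 1.74-fold.

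**Figure D1:**
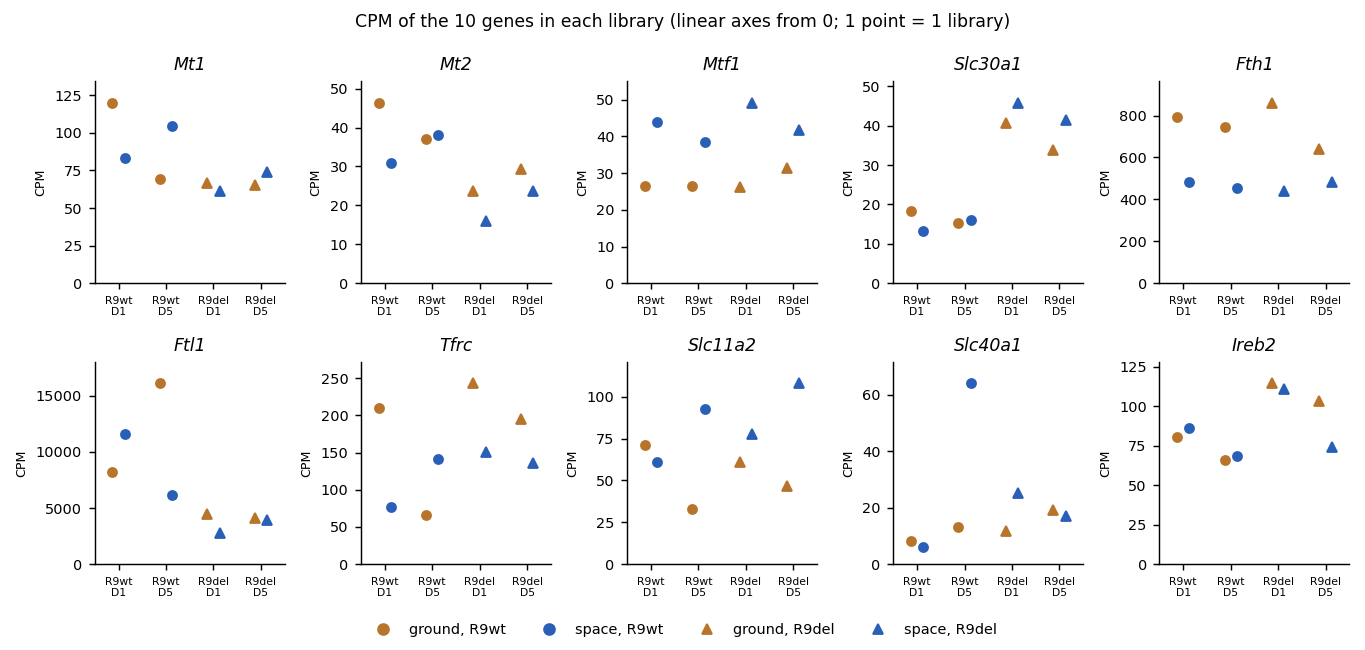
CPM (linear axes from 0) of the 10 genes in each of the 8 libraries, 1 point for each library, with colour for location, shape for genotype, and genotype and day along the horizontal axis. Fth1 was lower and Mtf1 higher in every space library, Slc30a1 was higher and Ftl1 lower in every R9del library, and Slc40a1 stood at 63.95 CPM in the space R9wt D5 library.

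Spaceflight was compared as 4 space libraries against 4 ground libraries. Fth1 fell in space and was the only member called at an adjusted p under 0.05 (edgeR's quasi-likelihood test, Benjamini-Hochberg over all 20473 genes tested). Mtf1 was higher in each space library, at an adjusted p = 0.0845. Slc11a2 and Slc40a1 had higher means and Tfrc, Ftl1 and Mt2 lower ones, with groups that overlapped. Over all genes tested, 6.33% passed the adjusted threshold. None of the members passed the threshold of the study, a fold change of at least 2 at an unadjusted p under 0.05, which 11% of all genes passed.

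Fth1, the heavy chain that oxidizes iron for storage, gave 790.7, 746.1, 861.2 and 638.4 CPM on the ground (R9wt D1, R9wt D5, R9del D1 and R9del D5) and 480.8, 452.4, 439.3 and 482.5 CPM in space. Every space library lay below every ground library, and the space libraries also lay closer together. The means were 759.1 ± 93.3 CPM on the ground and 463.7 ± 21.3 CPM in space (SD, n = 4 each). The log2 fold change was -0.71 ± 0.17 (SE), a fold of 0.611, at an adjusted p = 0.0343 (0.0545 with library size alone and 0.0639 with no filter on low counts). Within matched pairs the ratio of space to ground ran from 0.51 (R9del D1) to 0.756 (R9del D5). Leaving out any 1 library kept the direction, and the adjusted p was 0.0479 without the ground R9wt D5 library but 0.0551 to 0.105 without each of the other 7, so the call did not hold in those fits.

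Mtf1, the zinc-sensing factor, gave 26.5, 26.4, 26.2 and 31.5 CPM in the ground libraries in the same order, and 44.0, 38.5, 49.2 and 41.8 CPM in space. The groups did not overlap, and the space to ground ratio was 1.33 to 1.87 in the 4 pairs. The log2 fold change of Mtf1 was 0.65 ± 0.19 (SE), which missed the threshold in edgeR's test and passed it in DESeq2's Wald test (adjusted p = 0.00184). Fth1 and Mtf1 were the 2 members whose groups did not overlap, against 14.4% of all genes tested. Across the 8 libraries their log2 CPM had a Pearson correlation of -0.96, a description over libraries that share the location difference. Of the metallothionein genes, Mt1 averaged 80.2 CPM on the ground and 80.7 CPM in space (log2 fold change 0.01 ± 0.26 SE, adjusted p = 0.99), with space to ground ratios of 0.691 and 0.92 at D1 and of 1.51 and 1.14 at D5 (R9wt and R9del). The ratio of Mt2 lay between 0.666 and 0.804 in 3 pairs and was 1.03 for R9wt at D5.

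Slc11a2, the proton-coupled iron importer, had the next smallest adjusted p in this comparison, 0.22. It gave 71.2, 33.0, 60.8 and 46.9 CPM on the ground and 61.2, 92.7, 77.8 and 107.9 CPM in space. Only the R9wt D1 pair went the other way, and the log2 fold change was 0.68 ± 0.28 (SE). For Slc40a1 it was 1.10 ± 0.60 (SE) at an adjusted p = 0.376, and 0.31 without the space R9wt D5 library. For Tfrc it was -0.50 ± 0.38 (SE) at an adjusted p = 0.546. Ireb2 (-0.10), Slc30a1 (0.11), Mt2 (-0.33) and Ftl1 (-0.42) also did not pass.

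The difference between space and ground varied with the base composition of genes. Over all tested genes with a known sequence, split into 10 groups by GC content, the median log2 fold change in space was 0.18 at 48.4 to 50.2% GC, -0.42 in the group above 57.9% and -0.26 in the group below 41.9%. Fth1 has 52.3% GC, and with a correction for GC content in each library its log2 fold change stayed at -0.71 (adjusted p = 0.0444). Mtf1 (49.9% GC) went to 0.58. The values of Tfrc and Ireb2, both at 39.1% GC, changed sign under that correction, to 0.06 and 0.44, with adjusted p-values of 0.949 and 0.224 (edgeR).

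Some cell type markers differed between locations. Of the 10 embryonic stem cell markers, Sox2 fell (84.6 to 125 CPM in space against 151 to 254 CPM on the ground, log2 fold change -0.97, edgeR adjusted p = 0.0269) and Esrrb rose (74.7 to 111 against 34.8 to 47.7 CPM, 1.16, adjusted p = 0.00796). Utf1 lay at 282 to 452 CPM in space and 494 to 872 CPM on the ground, without overlap (adjusted p = 0.056), and 3 of the 10 markers had a log2 fold change above 0. Of the 8 endoderm markers Sox17 fell, from 2.42 to 6.11 CPM on the ground to 0.0597 to 0.77 CPM in space (adjusted p = 0.0181). No other endoderm marker passed, 4 of the 8 had a log2 fold change above 0 and the median was 0.09. The fibroblast marker Pdgfrb was higher in space in all 4 pairs (log2 fold change 1.16, adjusted p = 0.225) and passed the threshold of the study, and 4 of the 5 fibroblast markers tested had a log2 fold change above 0 (median 0.59). The 5 erythroid markers summed to 4.18 to 8.97 CPM on the ground and 3.15 to 4.26 CPM in space. None of the 4 tested was above 0 in log2 fold change (median -0.91), and none passed. The part of these markers in the results for the members was not tested.

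**Figure D2:**
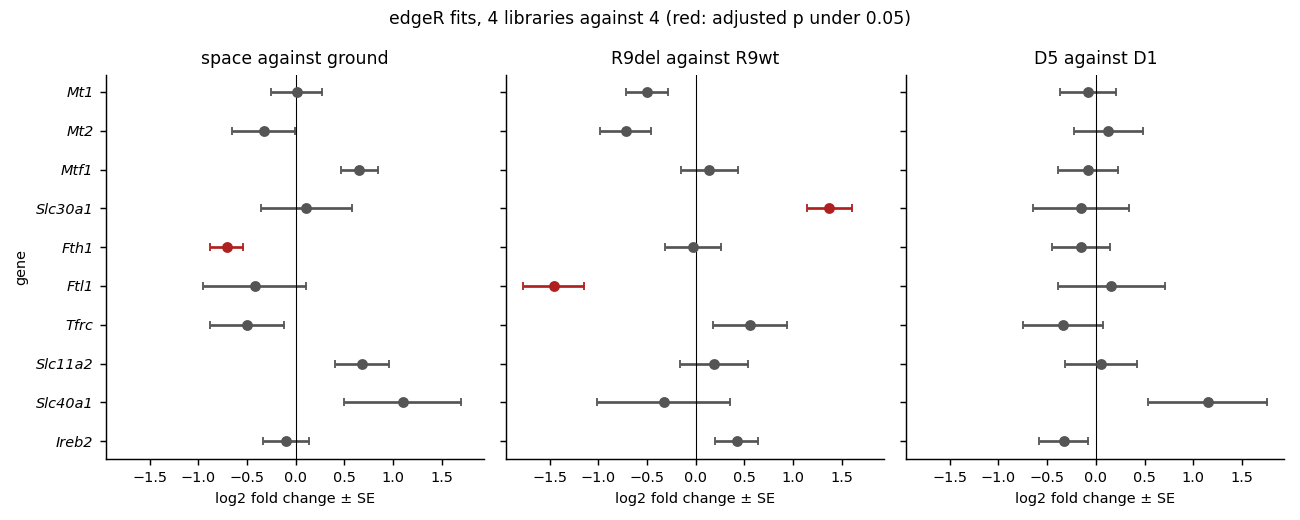
Log2 fold change ± SE (edgeR) of the 10 genes in the 3 comparisons of 4 libraries against 4, red where the adjusted p is under 0.05. Fth1 (-0.71) is called in space against ground, Slc30a1 (1.37) and Ftl1 (-1.46) in R9del against R9wt, and no gene in D5 against D1.

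Deletion of Rad9a was compared as 4 R9del against 4 R9wt libraries. The zinc exporter Slc30a1 rose and the ferritin light chain Ftl1 fell, both at an adjusted p under 0.05 and both past the study's threshold. The 2 metallothionein genes were lower in R9del in all 4 pairs without passing. Over all genes tested, 1.82% passed the adjusted threshold and 13.8% the threshold of the study. With the matched pairs as a replicate block the number of genes called went from 372 to 1675, and the same 2 members were called.

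Slc30a1 gave 18.3, 15.2, 13.3 and 15.95 CPM in the R9wt libraries (ground D1, ground D5, space D1 and space D5) and 40.6, 33.7, 45.8 and 41.5 CPM in R9del. The lowest R9del library was thus far above the highest R9wt library. The means were 15.7 ± 2.05 CPM and 40.4 ± 5.00 CPM (SD, n = 4 each). The log2 fold change was 1.37 ± 0.23 (SE), a 2.58-fold rise, at an adjusted p = 0.0353 (0.0156 with the replicate block). The pairs ranged from 2.22-fold on the ground at D1 to 3.44-fold in space at D1. The direction held in every fit, while the adjusted p was 0.0435 without the ground R9wt D1 library and 0.0528 to 0.113 without each of the other 7.

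Ftl1 gave 8248, 16110, 11630 and 6164 CPM in R9wt and 4475, 4086, 2812 and 3927 CPM in R9del, in the same order. R9wt libraries were all above the R9del libraries and varied more among themselves, with the ground D5 library the highest. The means were 10540 ± 4346 CPM and 3825 ± 713.4 CPM (SD, n = 4 each), and the log2 fold change was -1.46 ± 0.31 (SE), a fold of 0.363. Its adjusted p = 0.0488 was close to the threshold in edgeR, and was 0.0283 with the replicate block, 0.0505 with library size alone and 0.0584 with no filter on low counts. Without the ground R9wt D1 library it was 0.0479, and without each of the other 7 libraries 0.0503 to 0.15. Ftl2, a copy of Ftl1 with 85.1% of its 50-base words found elsewhere, stayed at 4 to 5.78% of the Ftl1 level in every library and fell with it. The heavy chain did not share this difference: Fth1 averaged 617.5 CPM in R9wt and 605.4 CPM in R9del. Per kilobase, Ftl1 exceeded Fth1 by 6.74- to 15.6-fold in R9wt and by 3.36- to 5.26-fold in R9del.

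Mt2, which binds zinc and copper through its cysteines, gave 46.4, 37.0, 30.9 and 38.2 CPM in R9wt and 23.6, 29.5, 16.03 and 23.7 CPM in R9del. Its genotype groups did not overlap, yet the log2 fold change of -0.72 ± 0.26 (SE) had an adjusted p = 0.166. With Slc30a1 and Ftl1 it made 3 members without overlap, against 14.3% of all genes tested. Mt1 gave 120, 69.2, 83.0 and 104.4 CPM in R9wt and 66.5, 65.0, 61.2 and 74.3 CPM in R9del, overlapping through the ground R9wt D5 and space R9del D5 libraries. Its log2 fold change was -0.50 ± 0.22 (SE) at an adjusted p = 0.249. Mt1 stayed 1.87- to 3.82-fold above Mt2 in CPM. Across libraries the log2 CPM of Slc30a1 correlated with that of Mt2 at -0.81, with Mt1 at -0.62 and with Ftl1 at -0.90, over 8 libraries that share the genotype difference.

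Ireb2 was higher in R9del in all 4 pairs, by 1.08- to 1.57-fold, with overlapping groups (log2 fold change 0.42 ± 0.22 SE, adjusted p = 0.309). Tfrc, the entry point for transferrin-bound iron, gave 209.8, 65.9, 76.5 and 140.9 CPM in R9wt and 243, 195.6, 150.4 and 136.1 CPM in R9del. Its R9wt libraries were spread over a wider range than its R9del libraries (log2 fold change 0.56 ± 0.38 SE, adjusted p = 0.444). Slc40a1, at -0.33 ± 0.68 (SE), became 1.01 without the space R9wt D5 library. Mtf1 (0.14), Slc11a2 (0.19) and Fth1 (-0.03) did not pass either. The 5 erythroid markers, from a cell type rich in Tfrc and ferritin, summed to 3.82 to 8.97 CPM in R9wt and 3.15 to 6.16 CPM in R9del, with the globin genes Hba-a1 and Hba-a2 at or under 1.88 CPM. The fibroblast marker Pdgfrb was lower in R9del in all 4 pairs (log2 fold change -1.30, edgeR adjusted p = 0.153) and passed the threshold of the study, while 2 of the 5 fibroblast markers tested had a log2 fold change above 0. Of the 10 embryonic stem cell markers Dppa5a also passed that threshold, at 950 to 1980 CPM in R9del against 2010 to 4600 CPM in R9wt (-1.05, adjusted p = 0.131). Zfp42 was higher in R9del in all 4 pairs (1.29, adjusted p = 0.293), and 6 of the 10 had a log2 fold change above 0. No cell type marker passed the adjusted threshold in this comparison. The part of these markers in the results was not tested.

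**Figure D3:**
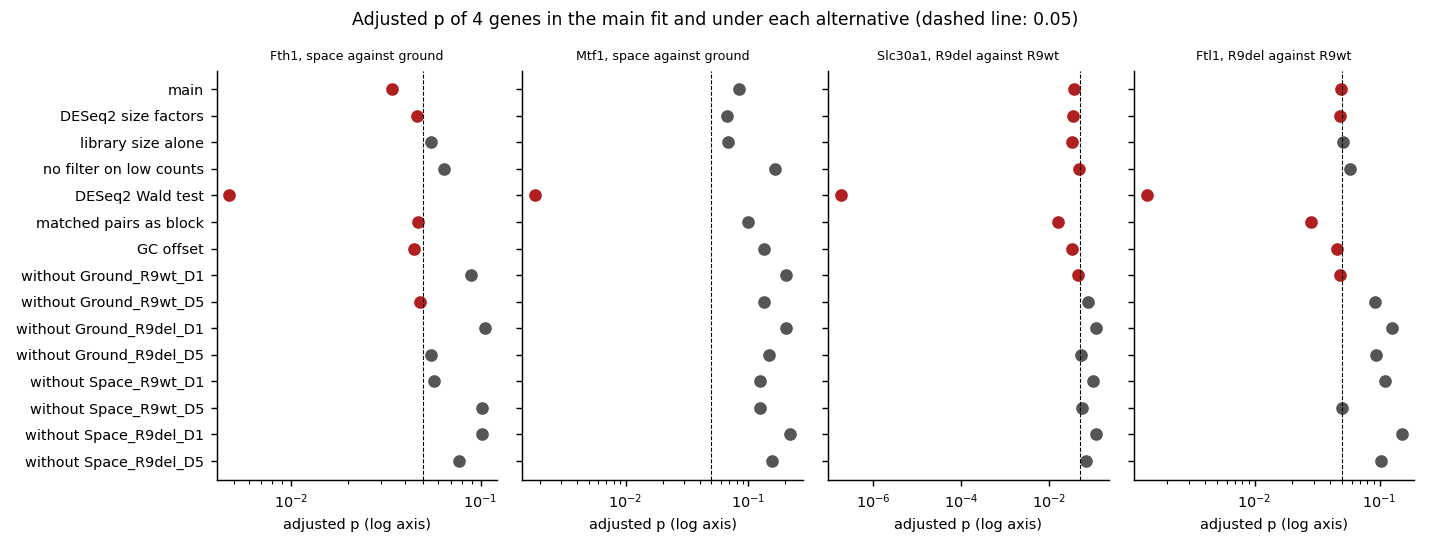
Adjusted p (log axis, 1 point for each fit) of Fth1, Mtf1, Slc30a1 and Ftl1 in the main fit, under 6 alternatives and with each of the 8 libraries left out; red points lie under the dashed line at 0.05. Fth1, Slc30a1 and Ftl1 each lie above the line in 7 of the 8 fits with 1 library left out, and Mtf1 is under it only in DESeq2's Wald test (0.00184).

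Culture duration was compared as 4 D5 against 4 D1 libraries, and no member passed. edgeR called 0% of all genes at the adjusted threshold, with 895 genes and none of the members at an unadjusted p under 0.05, and DESeq2 called 90 genes and no member. At the threshold of the study 3.49% of all genes passed and no member did. No member had groups without overlap, against 2.85% of all genes. The largest difference was that of Slc40a1 (log2 fold change 1.15 ± 0.61 SE, adjusted p = 1), which was 0.34 without the space R9wt D5 library. Ireb2 was lower at D5 in all 4 pairs, by a ratio of 0.668 to 0.903. Endoderm markers were higher at D5, with sums of 23.0 to 35.3 CPM against 6.66 to 15.2 CPM at D1. Of the 8, 4 passed the threshold of the study and none the adjusted one. The 5 fibroblast markers tested all had a log2 fold change above 0 (median 0.34). Among them Col1a2 (1.89) passed the threshold of the study, and none passed the adjusted one.

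Some members are described here library by library. Ferroportin, the iron exporter, gave 8.33, 13.1, 11.7 and 19.1 CPM in the ground libraries (R9wt D1, R9wt D5, R9del D1 and R9del D5) and 6.08, 63.95, 25.0 and 17.1 CPM in space. Its highest value, in the space R9wt D5 library, was 10.5-fold above the space R9wt D1 library and 4.89-fold above the matched ground library. These ratios compare single libraries and have no replicate check.

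Tfrc was lowest in the ground R9wt D5 and the space R9wt D1 libraries. For R9wt the matched space to ground ratio was thus 0.364 at D1 and 2.14 at D5, against 0.619 and 0.696 for R9del. Slc11a2 was also lowest in the ground R9wt D5 library, where Ftl1 was highest. The embryonic stem cell marker Tdgf1 was lowest in the same 2 libraries as Tfrc, at 202 and 461 CPM against 589 to 1130 CPM in the others. The marker Dppa5a was instead highest in ground R9wt D5, at 4600 CPM. The part of such marker differences was not tested. In CPM, Tfrc was 0.0883 of Fth1 in the ground R9wt D5 library and 0.159 to 0.342 of it in the others. Iron regulatory proteins control the receptor and the store in opposite directions, but ferritin through translation, which a ratio of messages does not show. Protein was not measured, and the ratio overlapped between the groups of each comparison.

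Mt1 was thus lower in space than on the ground at D1 in both genotypes and higher at D5. Slc11a2 was lower at D5 than at D1 on the ground (ratios 0.463 and 0.771) and higher at D5 in space (1.52 and 1.39). Whether these directions differ was not tested. The interaction of location and genotype, with duration as a covariate, was tested with edgeR and called 0% of 22561 genes, with 695 at an unadjusted p under 0.05, none of them a member, while DESeq2 called 34 genes and no member. Among the members the difference of the space effect between R9del and R9wt ran from -0.72 ± 1.16 (SE, Slc40a1) to 0.42 ± 0.41 (SE, Slc30a1) on the log2 scale, each at an adjusted p = 1.

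Squared deviations of log2 CPM over the 8 libraries were summed and divided among location, genotype, duration and their combinations. Location held 89.8% for Fth1 and 88.0% for Mtf1, and genotype held 94.7% for Slc30a1, 74.2% for Ftl1, 65.3% for Mt2 and 51.6% for Mt1. With the squares pooled over all tested genes, location held 26.9%, genotype 29.6% and duration 12.7%. The most variable genes weigh most in these pooled shares, so they do not show how common a share is among single genes. Duration held at most 33.6% for any member (Ireb2). For Slc11a2 location held 48.1% and its combination with duration 39.3%, and for Slc40a1 no term held more than 29%. With 1 library for each condition these shares hold noise as well as effects.

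**Figure D4:**
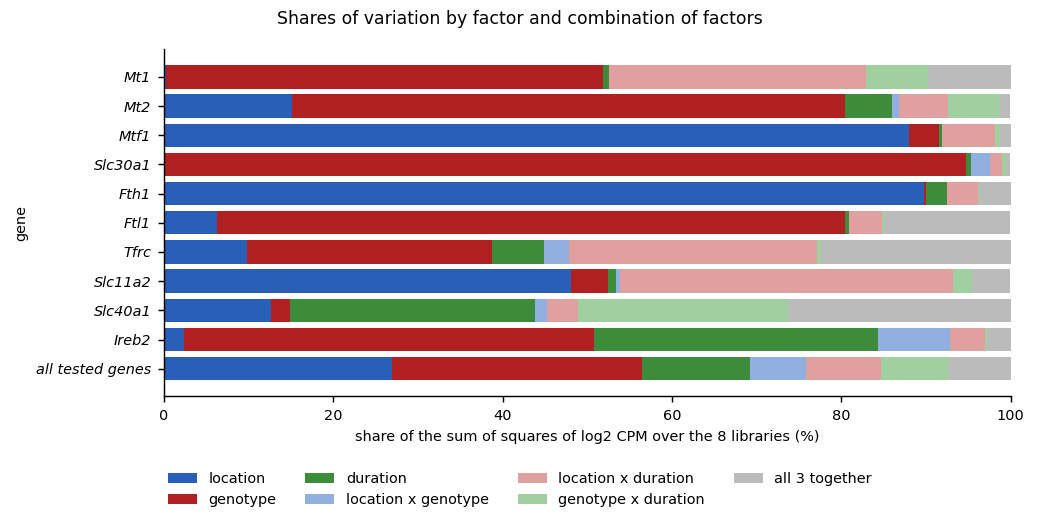
Share (%) of the summed squares of log2 CPM (8 libraries) by factor and combination of factors, 1 bar for each gene and 1 for the squares pooled over all tested genes. Location dominates the bars of Mtf1 (88.0%) and Fth1 (89.8%), genotype that of Slc30a1 (94.7%), and the bars of Tfrc and Slc40a1 are split among many terms.

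Other genes of metal handling were read from 5 lists: 25 genes of zinc transport and metallothionein, 29 of iron handling, 19 of heme synthesis and turnover, 23 of iron-sulfur cluster assembly and 11 of copper handling. Of these 107 genes, 99 were tested. In space 7 of them fell and none rose at an adjusted p under 0.05, against 5.32% of all genes that fell and 1.01% that rose. By the threshold of the study 8 were lower and 2 higher, against 11% of all genes in either direction. The median log2 fold change of the 99 was 0.00, against 0.01 over all genes.

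Of the 7 genes, 4 belong to iron-sulfur cluster assembly, of which 23 were tested. Iscu, the scaffold on which clusters are built, gave 50.7 to 62.0 CPM on the ground and 3.21 to 5.64 CPM in space (12.8-fold lower, log2 fold change -3.68 ± 0.25 SE). Glrx5, which passes clusters on, gave 9.64 to 72.8 CPM and 1.92 to 3.61 CPM. Bola3, a later factor for mitochondrial targets, gave 8.58 to 18.3 CPM and 1.54 to 2.77 CPM. Nubp1, of the cytosolic pathway, gave 110 to 150 CPM and 10.7 to 39.3 CPM. Without overlap between the groups, 6 of the 23 were lower, these 4 among them, and 1 was higher, against 14.4% of all genes tested. The 4 were named for their calls, so their lack of overlap adds nothing to the calls. Their adjusted p-values in edgeR were 5.32e-05 for Iscu, 0.0049 for Glrx5, 0.00187 for Bola3 and 0.00256 for Nubp1. The other 19 were not called, and the median of the 23 was -0.22.

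In the copper list, of which 11 were tested, Cox11, which delivers copper to cytochrome c oxidase, fell 19.0-fold, from 48.0 to 58.3 CPM on the ground to 2.31 to 3.33 CPM in space (log2 fold change -4.25 ± 0.24 SE, adjusted p = 2.87e-05). The other 10 were not called, 8 of the 11 had a log2 fold change above 0, and the median was 0.37. Atp7a, a copper-exporting ATPase named after its values were seen, was 2.76-fold higher in space without overlap and passed the threshold of the study (adjusted p = 0.0614). Slc39a1 of the zinc list, also named after its values were seen, did likewise at 2.13-fold (edgeR adjusted p = 0.0526). Fech, the enzyme that inserts iron into heme, and Slc30a5, a zinc transporter of the secretory pathway, are named because each was the single call of its list, a choice made after their values were seen. Fech gave 38.6 to 57.3 CPM on the ground and 11 to 22.4 CPM in space, and Slc30a5 gave 67.2 to 83.6 CPM and 31.3 to 39.5 CPM. These 7 genes passed also without any 1 library, with a highest adjusted p of 0.0363 (edgeR, for Fech), and with the GC correction. Exons of Cox11 overlap Tom1l1 over 48.3% of their length and those of Nubp1 overlap Fam18a over 36.9%, and 23.2% of the 50-base words of Iscu occur elsewhere in the genome, so their counts depend on how reads were assigned. No gene of the iron handling list was called in space.

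In R9del 3 of the 99 fell and none rose at an adjusted p under 0.05, against 0.772% of all genes that fell and 1.05% that rose. These were Slc30a3, which loads zinc into vesicles, Hscb, a co-chaperone of cluster assembly, and the copy Ftl2. With 85.1% of its 50-base words found elsewhere, Ftl2 may hold reads of Ftl1, so its fall may not be separate from that of Ftl1. Slc30a3 gave 12.1 to 31.6 CPM in R9wt and 3.47 to 7.60 CPM in R9del (log2 fold change -2.14 ± 0.39 SE, adjusted p = 0.0405). Hscb gave 20.3 to 44.5 CPM and 6.13 to 10.9 CPM (log2 fold change -1.83 ± 0.32 SE, adjusted p = 0.0371). Ftl2 gave 262 to 854 CPM and 112 to 191 CPM (log2 fold change -1.67 ± 0.35 SE, adjusted p = 0.047). With 1 library left out the highest adjusted p was 0.124, 0.122 and 0.144 in that order. By the threshold of the study 9 of the 99 were lower, against 7.62% of all genes. Another 2 were higher, and 13.8% of all genes passed that threshold in either direction. The 9 included 4 of the 23 tested genes of iron handling (Ftl2 and, named after their values were seen, Trf, Tfr2 and Steap3), 2 of zinc transport, 2 of heme synthesis and turnover and 1 of cluster assembly. In D5 against D1 no gene of the 5 lists was called by edgeR, with 5 at an unadjusted p under 0.05 and none called by DESeq2 among the 3 with the smallest p, Slc39a10, Steap2 and Ltf.

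**Figure D5:**
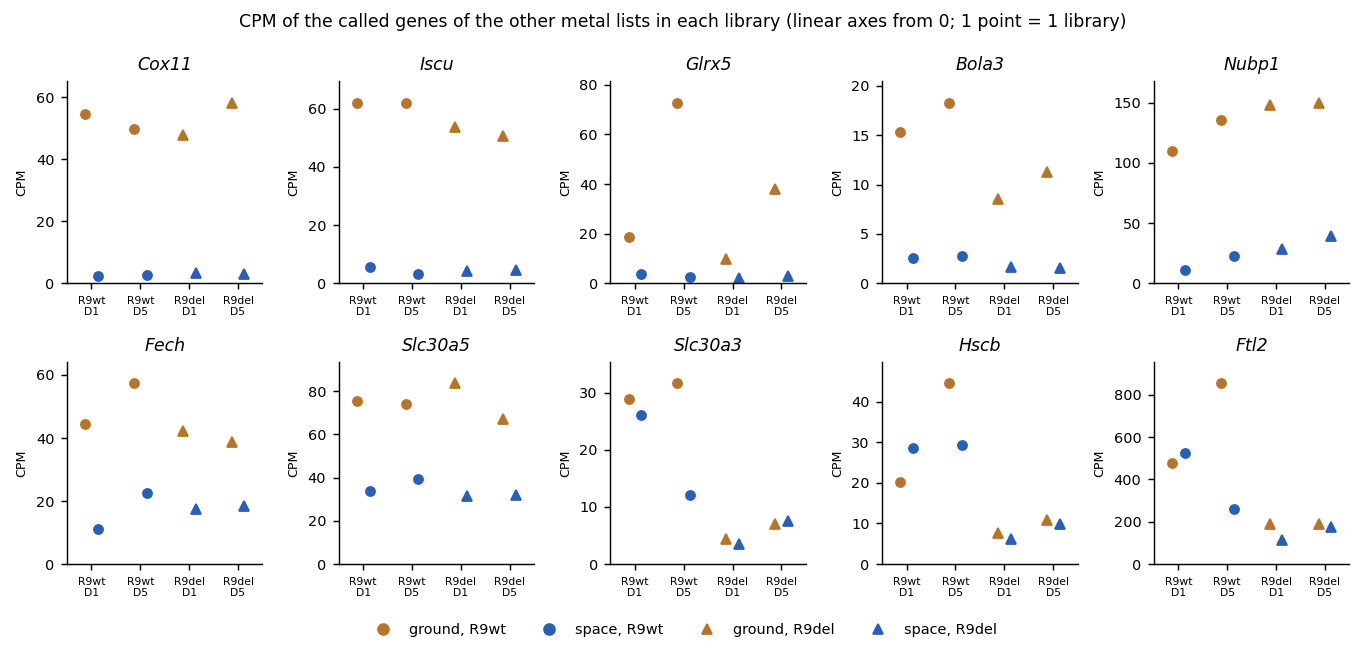
CPM (linear axes from 0) in each of the 8 libraries, 1 point for each library, of the 7 genes of the other lists called in space against ground (Cox11 to Slc30a5) and the 3 called in R9del against R9wt (Slc30a3, Hscb and Ftl2). Cox11 lies at 2.31 to 3.33 CPM in space and at 48.0 to 58.3 CPM on the ground.

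Genes with the most similar pattern were sought for Mt1, Fth1 and Tfrc by the Pearson correlation of log2 CPM over the 8 libraries among 9922 genes with a mean log2 CPM of at least 3. Nearest to Mt1 were Gm6548 (0.919), Gpr160 (0.918) and Mob3b (0.914). Nearest to Fth1 were Slc15a4 (0.987), Gm10704 (0.968) and Dgat2 (0.966), all lower in every space library. Nearest to Tfrc were Cenpb (0.979), Lcmt2 (0.976) and Tbc1d25 (0.974). Their 2 lowest libraries were those of Tfrc, at 8.28, 6.65 and 1.42 CPM in ground R9wt D5 and 8.17, 10.6 and 3.40 CPM in space R9wt D1. The genes were picked by their correlation, so the low libraries they share with Fth1 or Tfrc follow from that choice. These correlations describe 8 libraries, and the level that the best 3 of 9922 genes would reach by chance was not computed.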

How the data were processed

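RNA from 8 mESC cultures was sequenced as paired-end reads of polyadenylated RNA. The authors aligned the reads to mm9 with TopHat 2.0.9 and deposited whole-number counts per Ensembl gene, without normalization; the counting program and annotation are not given in the sources used here. Among values from 1 to 12, 20.6% are 4, against 8.8% for 3 and 7.8% for 5, so 1 fragment may stand for more than 1 count. The smallest detectable level, taken as 3 counts, was at most 0.0503 CPM, and may understate the counting error for that reason.

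CPM used TMM-scaled library sizes (factors 0.929 to 1.04), and log2 CPM a prior count of 2. Groups came from the labels. The main test was edgeR's quasi-likelihood test (edgeR 4.0.16, R 4.3.3) on genes kept by filterByExpr (minimum count 10), with Benjamini-Hochberg adjustment over all genes and no block. The threshold of the study, a fold of 2 at an unadjusted p under 0.05, was counted separately. The fit was also tested on simulated data, and no value from that test is used here.

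Alternatives were DESeq2 size factors, library size alone, no filter, DESeq2's Wald test (DESeq2 1.42.0), the matched pairs as a replicate block, a GC offset from 20 bins in each library, and leaving out each library. Libraries that share the other conditions by their labels deviated together from their group means (correlations 0.284 to 0.610 across genes, against -0.498 to 0.303 for other pairings, so the ranges overlap). Gene models came from GENCODE vM1, and older symbols were matched through RefSeq synonyms (GRCm38.p6, names only). All columns were used. Of the erythroid list, Hbb-bt and Hbb-bs matched no gene identifier and some markers are not reported here. Its sum holds 5 genes.

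The members and lists were chosen with earlier results of these data known. The genes named are the 10 members, Rad9a, list genes with an adjusted p under 0.05 (at most the 5 with the largest change in a comparison, or the 3 with the smallest p where none passed), and the 3 genes nearest in pattern to Mt1, Fth1 and Tfrc. Cell type markers and any other gene named were chosen after their values were seen. Alternatives for the list genes and for the count of members past the threshold of the study were added after seeing the data.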

Additional observations from a re-analysis of the deposited data

Results flagged for a closer look

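Among the 4 libraries of each location, genotype or day, single libraries that stood far from the other 3 by Dixon's criterion were found in 4 of 60 checks of the members, and chance gives about 1 in 20. Slc40a1 at 63.95 CPM in the space R9wt D5 library stood apart both among the R9wt and among the D5 libraries. Mt1 at 120 CPM in the ground R9wt D1 library and Mtf1 at 31.49 CPM in the ground R9del D5 library stood apart among the ground libraries.

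In 4 of 60 checks both pairs on one side moved one way and both pairs on the other side the opposite way, which directions at random would give in about 1 of 8, so these are listed as values only. The mean log2 ratio of space to ground was -0.33 at D1 and 0.39 at D5 for Mt1. The same gene's D5 to D1 ratio averaged -0.41 on the ground and 0.31 in space. For Slc11a2 the D5 to D1 ratio averaged -0.74 on the ground and 0.54 in space. Both Mt1 entries hold the same contrast of location and duration, and neither that contrast nor the one of Slc11a2 was tested. For Ireb2 the space to ground ratio averaged 0.08 in R9wt and -0.26 in R9del, and the interaction of location and genotype was not called (edgeR, adjusted p = 1).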

How the results depend on the processing

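Each condition has 1 library, and the lowest count of a member in any library was 407 (Slc40a1). In space against ground, the number of members called (1, Fth1) became 0 with library size alone and with no filter and 2 with DESeq2's Wald test, where the genes called went from 1296 to 2383. In R9del against R9wt the members called (2) became 1 (Slc30a1) with library size alone and with no filter, and the genes called (372) became 157 with no filter, 2046 with DESeq2 and 1675 with the matched pairs as a replicate block. In D5 against D1, DESeq2 called 90 genes against 0. The replicate block changed no call of a member.

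Leaving out 1 library gave 0 to 1 members and 837 to 1240 genes called in space against ground, and 0 to 2 members and 0 to 525 genes in R9del against R9wt. No gene was called there without the ground R9wt D5, ground R9del D1, space R9wt D1 or space R9del D1 library. The members past the threshold of the study were 0 to 1 in space against ground (1 without the space R9wt D1 library), 0 to 1 in D5 against D1 (1 without the space R9del D1 library) and 2 to 3 in R9del against R9wt (3 without the space R9wt D5 library).

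Values of members that were not called changed sign as follows. Under the GC offset, Tfrc (0.06) and Ireb2 (0.44) did so in space against ground, Fth1 (0.01) in R9del against R9wt and Slc11a2 (-0.01) in D5 against D1. Library size alone gave 0.05 for Fth1 in R9del against R9wt. The replicate block gave 0.34 for Slc40a1 in R9del against R9wt and -0.10 for Slc11a2 in D5 against D1. With 1 library left out, the log2 fold change in space against ground was -0.13 to 0.27 for Mt1, -0.19 to 0.38 for Slc30a1, -0.93 to 0.13 for Ftl1 and -0.25 to 0.03 for Ireb2. In R9del against R9wt it was -0.03 to 0.30 for Mtf1, -0.25 to 0.11 for Fth1, -0.06 to 0.42 for Slc11a2 and -0.63 to 1.01 for Slc40a1. In D5 against D1 it was -0.27 to 0.16 for Mt1, -0.07 to 0.45 for Mt2, -0.21 to 0.10 for Mtf1, -0.45 to 0.14 for Slc30a1, -0.29 to 0.02 for Fth1, -0.52 to 0.53 for Ftl1 and -0.24 to 0.28 for Slc11a2. The cause of these changes was not tested.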
